A study of Bos taurus with 12 samples.

Results

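Milk carries calcium, phosphate and zinc to the calf in amounts that the mammary epithelial cell has to take up from blood, move into its secretory pathway and release. Casein micelles are loaded with calcium phosphate in the Golgi and leave the cell by exocytosis, and calcium is also pumped across the apical membrane into the lumen. The 10 genes described here code for membrane proteins that transport or sense these ions. SLC34A2, SLC20A1 and SLC20A2 are sodium-dependent phosphate transporters. ATP2B1 and ATP2B2 are plasma membrane calcium pumps, ATP2C1 and ATP2C2 are the secretory pathway calcium pumps of the Golgi, and ATP2A2 is the calcium pump of the endoplasmic reticulum. SLC30A4 is a zinc exporter that fills secretory vesicles, and CASR is the calcium-sensing receptor.

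The genes were chosen by name, and their probes were the non-control probes whose RefSeq identifier on the array maps to one of the 10 symbols. Of the 10 members, 8 had at least 1 probe among the 12787 named genes of the array, with 19 probes in all. ATP2C2 and SLC30A4 had no probe by this match and were not analysed here. A probe was tested when its signal was well above background on every array of at least 1 group, which held for 8 of the 19 probes and for 6 of the 10 members. ATP2B2 and CASR had probes but none that was tested.

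Mammary gland RNA from 6 lactating Holstein cows was measured in 2 periods on 12 one-colour bovine oligonucleotide arrays. In the control period (CONT, n = 6) the cows ate a lactation diet ad libitum and the gland was biopsied on day 0, and in the restriction period (REST, n = 6) the feed allowance covered 50% of the net energy requirement for lactation and the gland was biopsied on day 6. The labels give no age or other treatment, every cow contributed 1 array to each period, and biopsies alternated between the rear glands of the udder, so that period, day and gland changed together within a cow and cannot be told apart. The series text counts 5 cows and the sample labels name 6, and all 6 were kept. A Holstein cow was left out of the experiment for mastitis, and the labels do not say whether its arrays are among these. A normalized signal is the log2 intensity of a probe minus the 75th percentile of its array, so that 0 is the level of that percentile and a difference of 1 is a 2-fold change.

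The 4 arrays of cows 5 and 6, which shared slide 3, were dimmer than the 8 arrays of slides 1 and 2. The 75th percentile of intensity was 73.2 to 117 on slide 3 and 252 to 390.0 on slides 1 and 2, and 41.9% to 48.0% of probes were well above background there against 61.8% to 67.9%. Each slide held both periods of its 2 cows. The biopsies held RNA of several cell types: 7 of 8 luminal epithelial markers and all 5 milk protein genes with a probe were tested, as were 6 of 6 fibroblast, 5 of 5 endothelial, 5 of 6 myoepithelial and 5 of 6 leukocyte markers. None of the 3 adipocyte markers with a probe was tested.

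Feed restriction was accompanied by lower signal of 2 of the 6 tested members, both of them phosphate transporters, and by higher signal of none (limma with cow as a block, Benjamini-Hochberg adjusted p under 0.1 over 19403 probes). Over all 7930 genes tested by their highest-signal probe, 16.2% were called, 9.27% lower and 6.94% higher. At an unadjusted p under 0.05, 3 of the 6 members passed, 1 of them higher, where 27.7% of all genes passed and 12.3% passed and were higher. The higher one, ATP2B1, entered the test only through REST, where its signal was higher, so its passing is no support for a difference. The median change of the 6 members was -0.19, against -0.01 over all tested genes. Without the cow block 1 member was called, SLC34A2, where 4.4% of all genes were called and 2.81% were called lower. In whole biopsies, fewer cells of a type and less RNA per cell cannot be told apart.

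**Figure D1:**
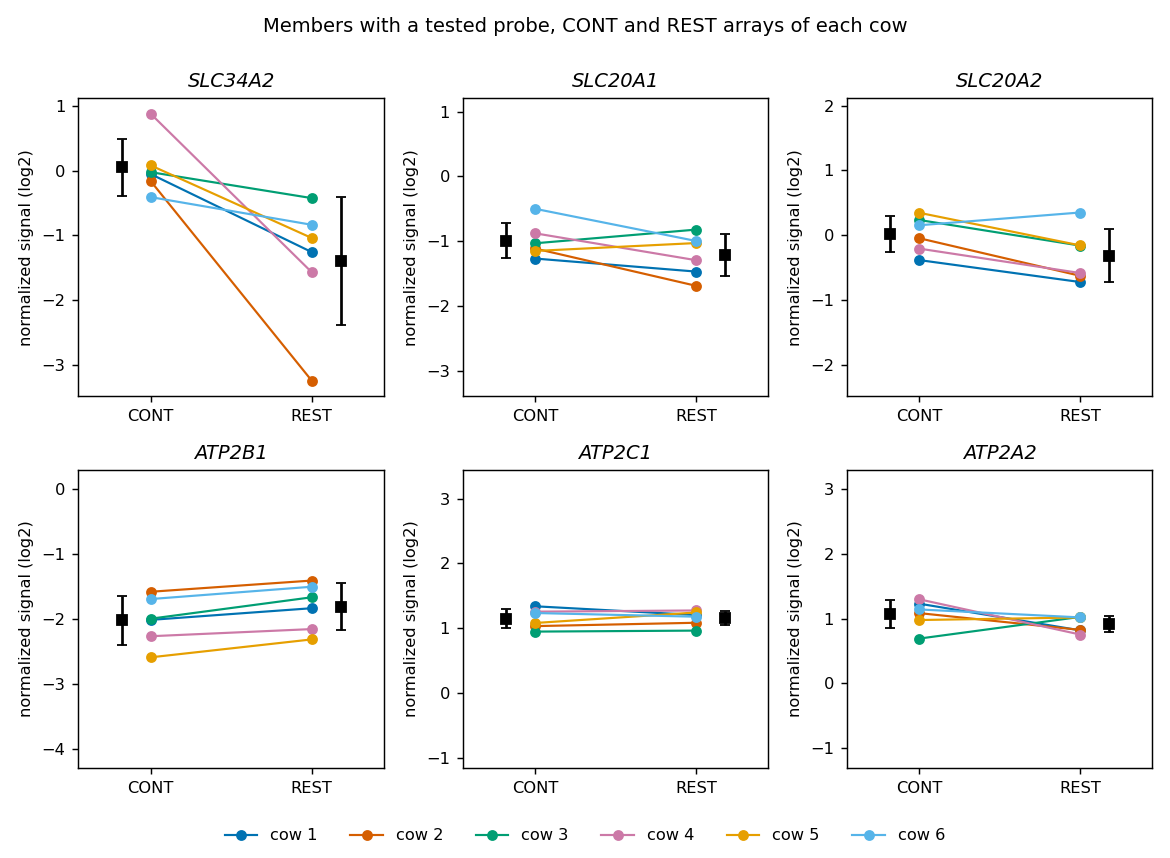
Normalized signal (log2, relative to the array's 75th percentile) of the 6 members with a tested probe, by their highest-signal probe, in CONT and REST. Each coloured line joins the 2 arrays of a cow, black squares and bars are the mean and SD of 6 arrays, and every panel spans the same number of log2 units. SLC34A2 is lower in REST in 6 of 6 cows, SLC20A2 in 5 of 6, and the ATP2C1 lines are nearly flat.

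SLC34A2, the type IIb transporter that brings phosphate across the apical membrane of secretory epithelia, had the largest change of the members. It was represented by 1 probe (A_73_105601, NM_174661), well above background on all 12 arrays. In CONT its normalized signal ran from -0.41 (cow 6) through a median of -0.04 to 0.88 (cow 4). In REST it ran from -3.24 (cow 2) through a median of -1.15 to -0.42 (cow 3). The 2 periods did not overlap, by a margin of 0.015 between the lowest CONT and the highest REST array, a separation shown by 2.27% of all genes. All 6 cows were lower in REST, as they were for 10.8% of all genes.

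The size of the SLC34A2 change differed widely between cows. The log2 change was -3.08 in cow 2 and -2.44 in cow 4, whereas it was -1.20 in cow 1, -1.12 in cow 5, -0.43 in cow 6 and -0.40 in cow 3. The means were 0.05 ± 0.44 (SD, n = 6) in CONT and -1.39 ± 0.98 in REST. SLC34A2 therefore fell 2.72-fold (95% confidence interval 1.59 to 4.66), a log2 change of -1.44 ± 0.34 (SE; limma adjusted p = 0.0404). It was the 17th largest fall among the 7930 genes. Within slides the mean change was -2.14 on slide 1, -1.42 on slide 2 and -0.77 on slide 3. The call was lost without cow 4 (-1.25, limma adjusted p = 0.114) and when no probe was left out for dim signal (limma adjusted p = 0.147; 0.889% of all 43653 probes were called in that fit). After normexp background correction, which models the local background and compresses dim signals, the change was -0.94 (limma adjusted p = 0.0366).

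SLC20A2, which codes for the sodium-phosphate cotransporter PiT-2, was read from 1 tested probe (A_73_108136, NM_001080280), well above background on all arrays. Its normalized signal in CONT ran from -0.38 through a median of 0.06 to 0.35. In REST it ran from -0.72 through a median of -0.37 to 0.35. The periods overlapped, and 5 of 6 cows were lower in REST, by 0.34 to 0.58, while cow 6 was higher by 0.20. SLC20A2 fell 1.26-fold (95% confidence interval 1.06 to 1.49), a log2 change of -0.33 ± 0.11 (SE; limma adjusted p = 0.0919). That value lay close to the threshold: it was 0.395 without the cow block, and the call was lost on leaving out any 1 of cows 1 to 5 (limma adjusted p from 0.148 to 0.235). The other SLC20A2 probes were well above background on 1 and 0 of the 12 arrays and gave no measured level.

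SLC20A1 codes for PiT-1, the close relative of PiT-2, and its 1 tested probe of 3 did not pass the test. Its tested probe (A_73_P082546) had a normalized signal of -0.99 ± 0.27 (SD, n = 6) in CONT and -1.22 ± 0.33 in REST, lower in 4 of 6 cows. The change was -0.23 ± 0.12 (SE; limma adjusted p = 0.266), with a 95% confidence interval from -0.50 to 0.05. A second probe of the same transcript (A_73_P374401) was well above background on 10 arrays, 1 short in each period, so it was not tested. In cows 1 to 4, the cows with both arrays well above background, its normalized signal ran from -1.93 to -1.55 in CONT and from -2.99 to -1.81 in REST. It was lower in REST by 0.26 to 1.21, a mean change of -0.70 ± 0.40 (SD, n = 4). The third probe was well above background on both arrays of the same 4 cows, with a mean change of -0.24 ± 0.33, lower in 3 of them.

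Restricting the fit to the 8 brighter arrays of slides 1 and 2, a choice made after the data were seen, brought 14 of the 19 member probes into the test. It called 3 of them, where 10.5% of all probes were called and 6.02% were called lower. They were SLC34A2 (-1.78, limma adjusted p = 0.0719), SLC20A2 (-0.42, limma adjusted p = 0.0784) and the second SLC20A1 probe (-0.70, limma adjusted p = 0.0737). Each phosphate transporter thus had 1 probe called lower in those 4 cows. For SLC20A1 neither the highest-signal probe (-0.25, limma adjusted p = 0.344) nor the third probe (-0.24, limma adjusted p = 0.350) was called. The shares above are of probes, and no share of genes with any called probe was computed for that fit.

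The difference in size between the phosphate transporters was tested from the changes within each cow. SLC34A2 changed by 1.11 ± 0.96 (SD, n = 6) log2 units more in the downward direction than SLC20A2, in 6 of 6 cows (exact two-sided sign-flip test, p = 0.03125, the smallest that 6 cows allow; adjusted over 3 pairs, p = 0.0938). Against SLC20A1 the difference was 1.22 ± 0.94, in 5 of 6 cows (exact sign-flip p = 0.0625, adjusted p = 0.0938). The smallest of the 6 differences from SLC20A2 was 0.00, in cow 3. SLC20A1 and SLC20A2 differed by 0.11 ± 0.49 (exact sign-flip p = 0.594, adjusted p = 0.594), and single cows ranged from -0.69 to 0.63, so the pair could differ by that much in either direction in a cow.

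The genes whose normalized signal followed SLC34A2 most closely by Pearson r over the 12 arrays were PPAT, an enzyme of purine synthesis (Pearson r = 0.92), MYBPC1, a myosin-binding protein (r = 0.91), and LY6G5B (r = 0.91). By Spearman rank correlation the same genes had 0.78, 0.92 and 0.82. Of these only MYBPC1 was called, with a change of -1.03 (limma adjusted p = 0.0181). SLC20A2 was followed most closely by HPGD, which degrades prostaglandins (r = 0.95), SCAMP3 (r = 0.90) and DPP10 (r = 0.90). HPGD fell by 1.04 on the log2 scale (limma adjusted p = 0.0172) and DPP10 by 0.72 (limma adjusted p = 0.0661). SLC34A2 and SLC20A2 had r = 0.55 with each other. These correlations describe arrays that share cows and periods, and the genes were taken as the highest of 7928.

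Neither plasma membrane calcium pump was called, and both had dim probes. ATP2B1, the broadly expressed pump PMCA1, was read from 1 tested probe (A_73_P332411, NM_174696), well above background on every array but the CONT array of cow 5. Its normalized signal ran from -2.59 through a median of -2.005 to -1.58 in CONT and from -2.32 through a median of -1.75 to -1.41 in REST. The values of cows spread more than the periods did, and within each cow REST was higher, by 0.11 to 0.33. Of all genes, 7.49% were higher in all 6 cows. The change was 0.21 ± 0.07 (SE; limma adjusted p = 0.107), with a 95% confidence interval from 0.05 to 0.37. After normexp correction it was 0.01 (limma adjusted p = 0.953), higher in 3 of 6 cows. The other ATP2B1 probe was well above background on both arrays of cows 1 to 4, with a mean change of 0.014 ± 0.22 (SD, n = 4), and of -0.15 after normexp.

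ATP2B2 codes for PMCA2, an apical pump known to be needed for normal milk calcium in mice. Its brightest probe (A_73_113566, NM_001191245) was well above background on both arrays of cows 1 to 5 and on neither array of cow 6, so no group was complete and it was not tested. In cows 1 to 5 its normalized signal was -2.80, -2.14, -2.01, -1.99 and -1.71 in CONT. In REST the same cows had -2.22, -1.97, -0.62, -1.61 and -1.37. REST was higher in each of them, by 0.17 to 1.39, with the highest value in cow 3. Over those 5 cows the mean change was 0.57 ± 0.48 (SD, n = 5), and in the fit of slides 1 and 2 it was 0.63 ± 0.20 (SE; limma adjusted p = 0.126). After normexp the mean was 0.20 ± 0.40, higher in 4 of the 5 cows. A second probe, measured in the same cows, gave 0.14 ± 0.66 and was higher in 2 of them, and the third was well above background on no array. No test of the difference between ATP2B1 and ATP2B2 is given, since neither was well above background on all arrays.

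**Figure D2:**
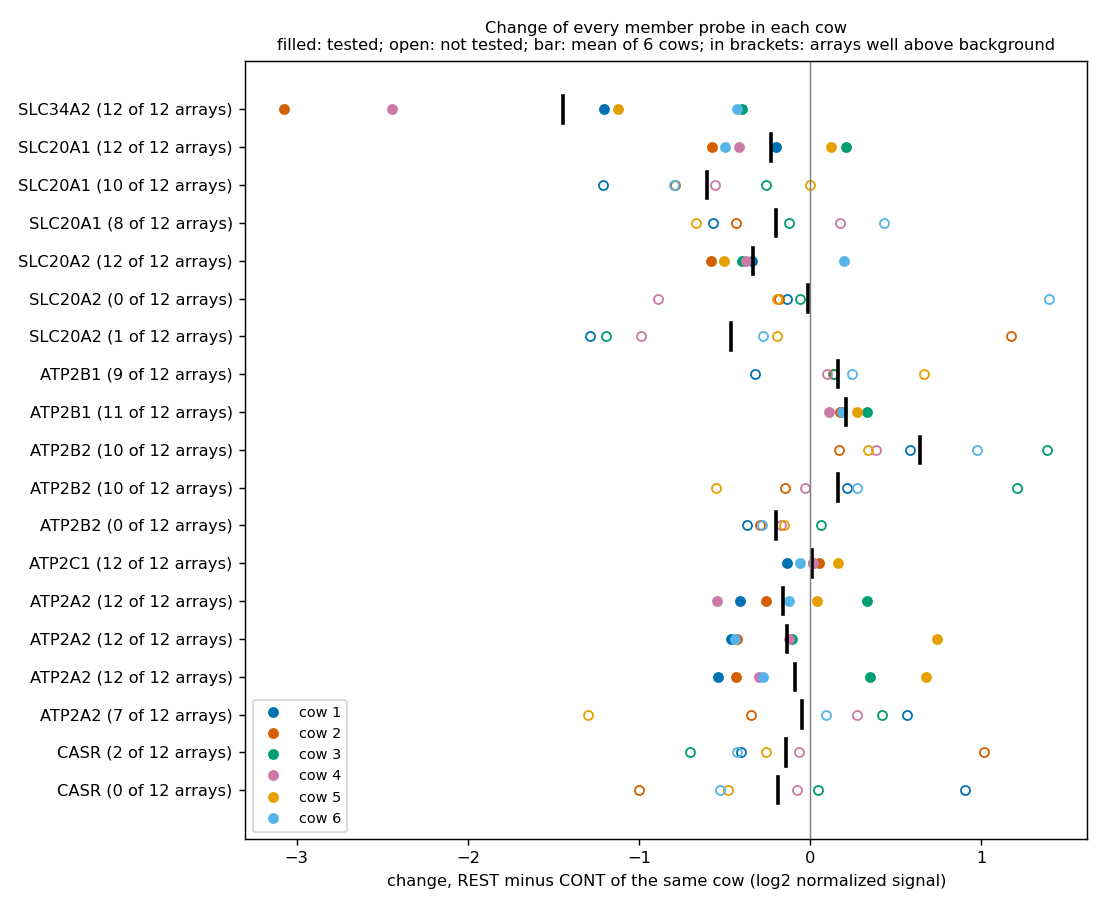
Change in normalized signal (log2, REST minus CONT of the same cow) for each of the 19 member probes. Each point is a cow, filled for tested probes and open for the others, bars are means of 6 cows, and the number of arrays well above background stands beside the gene. Points are drawn for all arrays, also those not well above background, such as cow 6 for ATP2B2. SLC34A2 lies below 0 in 6 of 6 cows, the brightest ATP2B2 probe above 0 in the 5 cows where it was measured, and probes seen on few arrays scatter widely.

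No pump of the Golgi or the endoplasmic reticulum was called. ATP2C1, the pump SPCA1 that loads the Golgi with calcium and manganese, was well above background on all arrays (A_73_117741, NM_175785). Its normalized signal was 1.15 ± 0.15 (SD, n = 6) in CONT and 1.16 ± 0.12 in REST, with single cows moving by at most 0.16 in size. The change was 0.01 ± 0.08 (SE; limma adjusted p = 0.950), and the 95% confidence interval ran from 0.895-fold to 1.13-fold. ATP2A2, the pump SERCA2, had 3 tested probes with changes of -0.16, -0.14 and -0.09 (limma adjusted p = 0.414, 0.608 and 0.769). For its highest-signal probe (A_73_106338) the level was 1.07 ± 0.22 in CONT and 0.91 ± 0.12 in REST, with a 95% confidence interval of the change from -0.43 to 0.11 and a range from -0.26 to -0.084 over the cows left out in turn. Of the 3 tested probes, 2 were higher in REST in both cow 3 and cow 5, while the other was higher in cow 5 only. The remaining probe, not tested, was well above background on both arrays of 3 cows and had a mean change of 0.12 ± 0.41 (SD, n = 3), higher in 2 of them.

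CASR, which senses extracellular calcium in parathyroid and other tissues, was near the limit of the arrays. One of its probes was well above background on 2 of 12 arrays, 1 in each period, and the other on none, so no level or change could be given. ATP2C2 and SLC30A4 are named here as members without a value.

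Of 69 other genes of calcium, phosphate and zinc handling, 56 had a probe and 36 were tested. Among them 4 were called, 2 lower and 2 higher, or 11.1% where 16.2% of all genes were called. Their median change was -0.10. At an unadjusted p under 0.05, 12 of the 36 passed, or 33.3% beside 27.7% of all genes, so the list lay below the share of all genes by one threshold and above it by the other. None was called without the cow block, where 4.4% of all genes were called. In that fit 7 (19.4%) had an unadjusted p under 0.05 beside 16.9% of all genes. The count was also 0 without cow 1, without cow 2 or without cow 4. Those 3 fits called 8.58%, 5.64% and 6.51% of all genes, so calls were fewer over the whole array too. Each call below was lost in each of these fits.

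TMEM165, a Golgi ion transporter with a part in calcium and manganese supply, fell by 0.72 ± 0.20 (SE; limma adjusted p = 0.0620). Its normalized signal ran from 2.36 through a median of 2.99 to 3.11 in CONT and from 1.70 through a median of 1.93 to 2.85 in REST. It was lower in 5 of 6 cows, and all 3 of its tested probes were called, with changes from -1.09 to -0.72. The call was lost without the cow block (limma adjusted p = 0.101) and kept without cow 3, 5 or 6. SLC34A1, the type IIa phosphate transporter known from the kidney, was called lower by 0.43 ± 0.15 (limma adjusted p = 0.0994), in 5 of 6 cows, a call lost without any 1 of cows 1 to 5 and without the cow block (limma adjusted p = 0.422). Its signal ran from -2.36 to -0.97 in CONT and from -2.41 to -1.051 in REST, and after normexp the change was -0.24 (limma adjusted p = 0.113).

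The genes called higher were STC1 and MT2A. STC1 codes for stanniocalcin 1, a secreted hormone with effects on calcium and phosphate transport, and was called higher by 0.47 ± 0.15 (limma adjusted p = 0.0809), in 5 of 6 cows, a call lost without any 1 of cows 1 to 5 and without the cow block (limma adjusted p = 0.149). MT2A is a metallothionein, a small cysteine-rich protein that binds zinc, and was called higher by 0.88 ± 0.28 (limma adjusted p = 0.0881), in 6 of 6 cows. It was well above background on 5 CONT and 6 REST arrays, so it entered the test only through the period where it was higher, and its other tested probe (0.69) was not called. The call was lost without cow 1, 2, 4 or 6. Its signal ran from -2.49 to 0.71 in CONT and from -1.63 to 0.77 in REST, so cows differed more than periods did. The related MT1A had a change of 0.65 ± 0.23 (limma adjusted p = 0.107) in the same direction in 5 of 6 cows, and probes of this family of near-identical genes may share transcripts. After normexp the changes were 0.24 for STC1, 0.40 for MT2A and 0.40 for MT1A (limma adjusted p = 0.136, 0.102 and 0.0812).

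In the main fit no zinc transporter was called among 4 exporters and 9 importers tested. Of these, 3 had an unadjusted p under 0.05, or 23.1% beside the 27.7% of all genes. The largest of these changes were -0.51 ± 0.21 for SLC30A6, which supplies zinc to the early secretory pathway (limma adjusted p = 0.15), and -0.40 ± 0.15 for SLC39A9 (limma adjusted p = 0.121). After normexp they were smaller, -0.41 and -0.34, but passed the threshold (limma adjusted p = 0.0850 and 0.0724). That fit called 3442 probes, against 3104 in the main fit. Calcium entry channels and their sensors (3 tested) had changes between -0.11 and 0.09. Among endoplasmic reticulum proteins, ITPR3, a channel that releases stored calcium, had 0.43 ± 0.15 (limma adjusted p = 0.102) and 0.14 after normexp (limma adjusted p = 0.332), and it too entered the test only through REST. PTHLH, the calcium-mobilising peptide made by the lactating gland, had 1 of 2 probes called, with changes of -0.39 and -0.35, and is named after its values were seen. It was the 1 gene that reading every tested probe would add, for 5 genes, where 20.5% of all genes had a called probe.

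**Figure D3:**
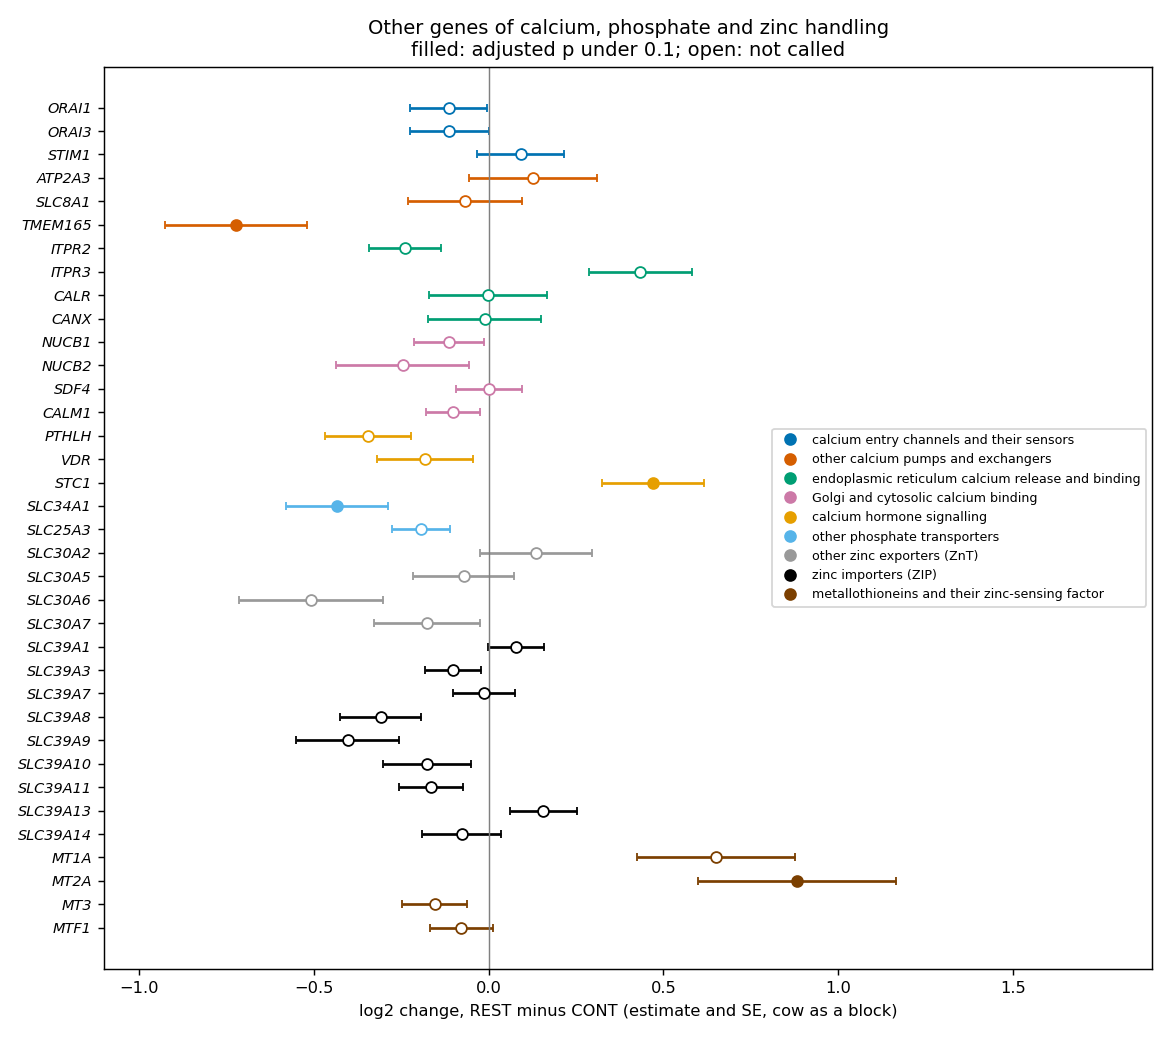
Log2 change (REST minus CONT, estimate and SE from limma with cow as a block) of the 36 tested genes of calcium, phosphate and zinc handling that are not members, coloured by list. Filled points have an adjusted p under 0.1: TMEM165 and SLC34A1 lie below 0, STC1 and MT2A above it.

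Some markers were called beside the phosphate transporters, in a fit that called 16.2% of all genes. By their highest-signal probes, milk protein genes had 2 of 5 called lower, CSN1S1 (-0.26) and CSN3 (-0.28). At least 1 called probe was found for 4 of 5, where 20.5% of all genes had one. The milk protein genes had 2 to 6 tested probes each, and that share was not matched for number of probes. Their summed signal ran from 12.05 to 12.41 in CONT and from 11.74 to 12.13 in REST, lower in 6 of 6 cows. Luminal epithelial markers had 2 of 7 called, both higher, KRT8 (0.72) and KRT18 (0.52). All 7 changes ran from -0.17 (CLDN4) to 0.72, with 2 below 0. Their summed signal ran from 8.05 to 8.53 in CONT and from 8.16 to 8.55 in REST. Endothelial markers had 1 of 5 called, VWF (0.54). All 5 changes ran from -0.15 (KDR) to 0.54, with 1 below 0. Their summed signal was higher in 6 of 6 cows, by 0.31 on average. It ran from 3.07 to 3.51 in CONT and from 3.35 to 3.65 in REST. Sums are of unlogged signals, so VWF, the brightest of the 5, weighs most in this one. Myoepithelial markers had 1 of 5 called, ACTA2 (-0.38), while all 5 changes ran from -0.38 to 0.25 (KRT5), with 2 below 0. Their summed signal ran from 6.17 to 7.06 in CONT and from 5.94 to 6.95 in REST. CD3E, a T cell marker, was the 1 of 5 leukocyte markers called (0.35). All 5 changes ran from -0.15 (PTPRC) to 0.35, with 3 below 0. CKM was the 1 of 2 skeletal muscle markers called (-0.36), beside 0.02 for ACTA1. The 6 fibroblast markers had changes from -0.54 to 0.32, and none was called by its highest-signal probe. Of these marker calls, VWF alone was also made without the cow block. By their highest-signal probes, VWF and KRT8 were kept whichever cow was left out, while the others were lost without at least 4 different single cows. KRT8 had 2 of 3 tested probes called, with changes from -0.14 to 0.72, and VWF had 4 of 4, from 0.51 to 0.61. The part of these markers in the changes of SLC34A2 and SLC20A2 was not tested.

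**Figure D4:**
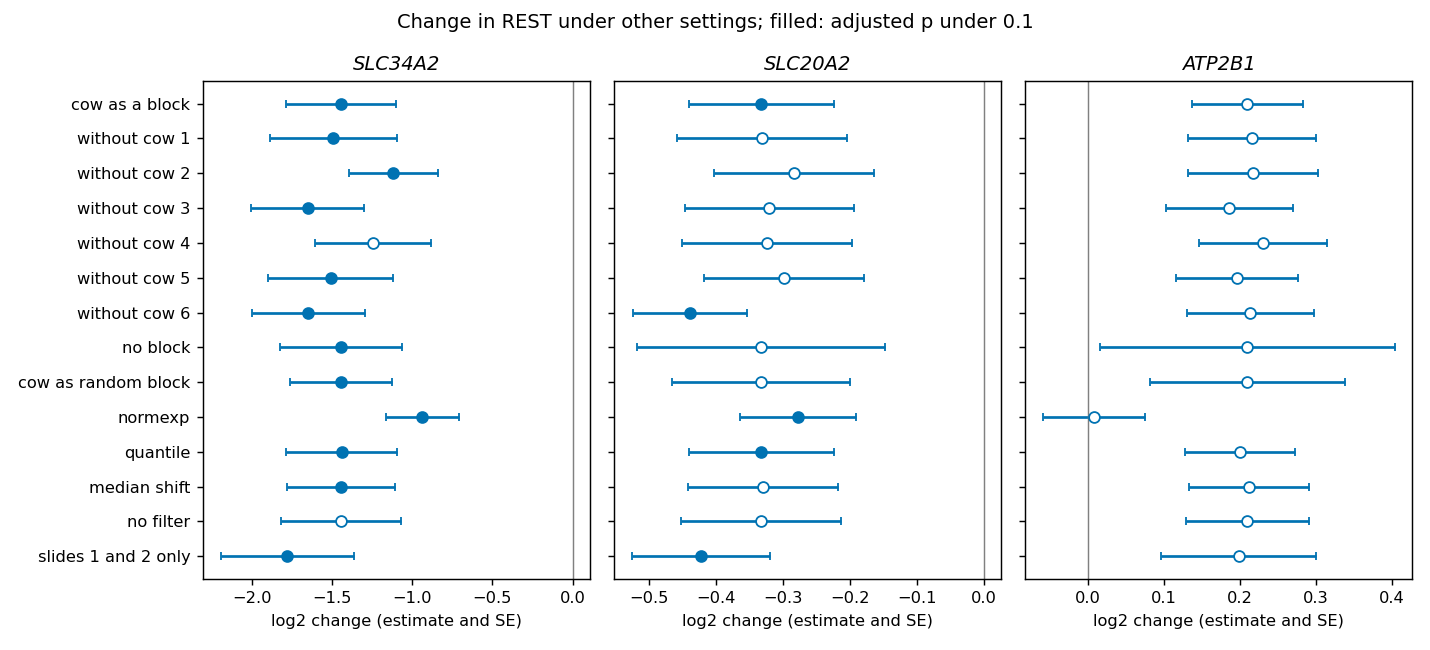
Log2 change (REST minus CONT, estimate and SE) of SLC34A2, SLC20A2 and ATP2B1 in the fit with cow as a block, without each cow, and under other blocks, normalizations, filters and arrays. Filled points have an adjusted p under 0.1. SLC34A2 stays between -1.78 and -0.94 and is open without cow 4 and without a filter, SLC20A2 is open under most settings, and ATP2B1 is open throughout and near 0 after normexp.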

How the data were processed

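RNA of mammary biopsies was labelled with Cy3 and hybridized by the authors to bovine Agilent arrays, scanned and read with Feature Extraction 11. The deposited values are spot intensities (processed signal, background-subtracted by that software) with outlier and background flags. The deposited value table held the same intensities (0 cells differed). The authors shifted arrays to the 75th percentile and used moderated tests at an adjusted P of 0.10.

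Here log2 processed signal minus each array's 75th percentile was computed over 43653 non-control probes. Outlier spots were left out and repeat spots averaged. Symbols came from RefSeq identifiers (27131 probes, 12787 genes), and no coordinates were used because the gene table's assembly differs from the array's. A paired limma 3.58.1 model (R 4.3.3) with cow as a fixed block was fitted to 19403 probes, with Benjamini-Hochberg adjustment over all of them and calls at an adjusted p under 0.1. A gene was read from its tested probe with the highest mean signal. Scripts were tested on simulated data. Tables and figures used Python 3.11.15, pandas 2.3.3, scipy 1.17.1 and matplotlib 3.10.9.

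The pairing comes from the animal named in the labels: deviations from the period means correlated at 0.356 to 0.574 for the same cow and at -0.326 to 0.135 for different cows. Differences between related genes used exact sign-flip tests over 6 cows. Alternatives were no block, cow as a random block, slide as a block, normexp (offset 50, on median spot and background signal, since no mean signal column was used), quantile or median normalization, the deposited table, other filters, outlier spots kept, a robust trend, and each cow left out. Leaving out slide 3 was added after seeing the data.

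Named genes were all members, the called genes among the other pathway genes, the 4 largest uncalled changes, and the 3 genes most correlated with each called member. Members and lists were chosen with earlier results of these data known. The number of arrays limits the precision.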

Additional observations from a re-analysis of the deposited data

Results flagged for a closer look

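Among 24 sets of 6 values (the CONT and the REST arrays of the 8 tested member probes and of the 4 other pathway genes called), 1 held an array far from the others, where 1.2 are expected by chance. For the ATP2A2 probe A_73_107013, the CONT array of cow 5 had a normalized signal of -2.34 while the other 5 CONT arrays lay between -1.82 and -1.56, a gap of 0.67 of the whole range. That probe was not the highest-signal probe of ATP2A2, and it was not called (limma adjusted p = 0.608).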

How the results depend on the processing

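Over all probes 3104 were called, against 836 with no replicate block, 1898 with slide in place of cow, 388 with no filter on dim probes, and 1045 to 3291 with each cow left out. SLC34A2 kept its direction under all 21 alternatives and had an adjusted p of 0.0737 without the pairing by cow. Where it was tested it was past the threshold except with no filter (-1.44, adjusted p = 0.147) and without cow 4, and ran from -1.65 to -1.12 over the cows left out. SLC20A2 lost its call at a change of -0.33 without the cow block, with cow as a random block (adjusted p = 0.122), with slide as a block (0.160), with the median shift (0.102) and with no filter (0.211), and ran from -0.44 to -0.28 over the cows left out, called only without cow 6. ATP2C1, not called, turned sign without slide 3 (-0.012), within slide 1 (-0.041) and without cow 5, where the change of ATP2C1 ran from -0.021 to 0.038 over the cows left out. By their highest-signal probes, SLC20A1, ATP2B1 and ATP2A2 were called under none, although another SLC20A1 probe was called without slide 3, and ATP2B1 had no value among probes well above background on all arrays. Differences from SLC34A2 ran from -1.48 to -0.96 (SLC20A1) and from -1.33 to -0.84 (SLC20A2) over the cows left out. Both kept an adjusted p of 0.0938 without cow 6, whose SLC20A1 difference had the other sign (0.07), and had 0.1875 without any 1 of cows 1 to 5, where the smallest exact p of 5 cows is 0.0625. Other pathway genes called numbered 4 of 36 (12 at an unadjusted p under 0.05), against 6 with cow as a random block (16.7%, beside 18.3% of all genes), 0 with no block (7 at an unadjusted p under 0.05) and 0 to 8 over the cows left out: 0 without cow 1, 2 or 4 (at an unadjusted p under 0.05, 13.9%, 16.7% and 13.9% beside 23.3%, 20.5% and 21.4% of all genes), 2 without cow 3 (5.56% beside 11.9%) and 8 without cow 5 (22.2% beside 17.1%). Of all genes, 8.58%, 5.64% and 6.51% were called without cow 1, 2 and 4. The cause of these shifts was not tested. ATP2C1 against ATP2C2, and the ATP2B1 and ATP2B2 pair among tested probes, could not be run. Dim signal on slide 3 limited which probes were tested.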
